A study of Mus musculus with 19 samples.

Results

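The genes described here are 30 genes of the lysosome, chosen by name: 8 membrane proteins, 9 cysteine proteases (8 cathepsins and legumain), 3 other proteases, 7 enzymes that cut sugars or lipids, and 3 lipid carriers or cofactors. They are 30 of the 36682 genes in the deposited table, and all 30 passed the filter on low counts, which left 22778 genes. Their RNA was read in dorsal root ganglia, which hold the cell bodies of sensory neurons, with the L3 to L5 ganglia of a mouse pooled. All 19 mice were male and homozygous for MaFIA (macrophage Fas-induced apoptosis), a transgene that drives a dimerizable Fas death receptor from the Csf1r promoter. The dimerizing drug AP20187 therefore acts on cells that use this promoter, macrophages and other myeloid cells among them, in the whole body and not in the ganglion alone. The groups were mice 8 weeks after destabilization of the medial meniscus (DMM), a surgical model of knee osteoarthritis, given AP20187 (n = 5) or vehicle (n = 5), and age-matched naive mice given AP20187 (n = 4) or vehicle (n = 5). Both agents were injected into the abdomen daily for 5 days, and every group, controls included, carried the transgene. No wild-type group given AP20187 was analysed here, so the transgene's part in a response to the drug and the drug's own cannot be told apart.

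The lysosome is the acidic compartment in which cells break down protein, sugar chains and lipids. Its enzymes are made in the secretory pathway and carried there by sorting receptors. Cathepsins cut proteins, glycosidases trim sugars from glycoproteins and glycolipids, and saposins, made from prosaposin, present lipids to those enzymes. Every cell has lysosomes, but macrophages and other phagocytes hold many, and certain members (Cd68, Ctss, Laptm5) are known mainly from those cells. Neurons depend on lysosomes too: inherited loss of several of these enzymes causes storage diseases that harm the nervous system.

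Libraries held 60984830 to 74691396 counts, and the lowest count of any member in any library was 369. The members together took a median of 0.607% of the counts in DMM mice given AP20187 and 0.683% in those given vehicle, and of 0.654% and 0.684% in the matching naive groups. Levels below are in CPM, the count relative to a library's TMM-scaled total, in which genes of different length are not compared. Lists of cell markers were summed the same way. The 6 neuron markers summed to 4335 to 10319 CPM in DMM with vehicle and 5788 to 11897 in naive with vehicle, so the labelled tissue was present. With AP20187 they summed to 1436 to 5322 in DMM and 1691 to 8073 in naive mice. The 12 markers of neutrophils and their precursors went the other way, from 415 to 8196 CPM with vehicle to 16964 to 29351 with AP20187 in DMM, and from 890 to 2391 to 8123 to 27708 in naive mice. The 6 monocyte markers also summed higher, to 3348 to 8806 CPM with AP20187 against 197 to 1732 with vehicle in DMM and to 1686 to 5033 against 280.05 to 1140 in naive mice. Of these, 4 rose and Ccr2 fell in DMM (log2 fold change -2.59, edgeR adjusted p = 0.00426), and 3 rose and Ccr2 fell in naive mice (-2.05, adjusted p = 0.0342). The 12 macrophage markers summed to 435 to 3443 CPM with vehicle and 1880 to 4142 with AP20187 in DMM, and to 391 to 1317 and 1542 to 2981 in naive mice. By the same test as below, 6 of 6 neuron markers fell in DMM and 0 in naive mice, and 1 of 12 macrophage markers rose in DMM and 3 in naive mice. Early B lineage markers fell (6 of 7 in DMM and 5 of 7 in naive mice), as did 4 of 6 erythroid markers in DMM. Skeletal muscle markers summed to 1504 to 2289 CPM in naive mice given AP20187 and 12.1 to 420.6 in naive mice given vehicle, with 2 of 5 called higher. In DMM they summed to 15.2 to 122.3 with AP20187 and 14.1 to 1745 with vehicle, highest in mouse 32, with 0 called. Of the other cells of the ganglion, 2 of 5 Schwann cell markers fell in DMM, 1 of 6 satellite glia markers fell in each comparison and 1 of 5 fibroblast markers rose in DMM. Over all genes tested, 23.8% were called in DMM and 11.2% in naive mice. A list with 1 marker called is therefore not read as a change in those cells. Of the markers in these lists, Igll1 of the early B lineage was at 0 in all naive mice given AP20187, and no other was at 0 throughout a group. In RNA from whole tissue, fewer cells of a type and less RNA per cell cannot be told apart, and the part of these marker shifts in any result below was not tested.

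Many lysosomal genes carry the sequence CACGTG near their start, the core of a palindromic motif that TFEB and its relatives are known to bind. The start regions shown next let the letters be compared between members that did and did not pass the tests given further on. The windows searched, from RefSeq on the GRCm38.p6 assembly, run from 250 bases before to 50 bases after each gene's start, and 27 of the 30 members have one. CACGTG, which reads the same on both strands, was in 10 of the 27 members (37.0%) and in 8.09% of all 27025 genes with a window. The longer TCACGTG, searched on both strands and overlapping it by construction, was in 8 of 27 (29.6%) against 4.29%. GAGGAAGT, a core of the kind bound by the myeloid factor PU.1, was on either strand in 4 of 27 (14.8%; Ctsc, Ctss, Gla and Gusb) against 3.69%. A match is a description of the letters and not a shown binding site. Lamp1, with 4 copies in 60 bases, held the most. Each stretch below is printed 5′ to 3′ on the gene's strand with CACGTG in capitals; the first 5 are Lamp1 and the 4 members with the motif that fell in DMM, and Ctsd and Glb1 are members with the motif that did not pass.
Lamp1, chr8:13159095-13159154, plus strand: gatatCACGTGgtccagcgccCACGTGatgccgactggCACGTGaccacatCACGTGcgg
Mcoln1, chr8:3500462-3500491, plus strand: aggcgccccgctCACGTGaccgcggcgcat
Gaa, chr11:119267811-119267840, plus strand: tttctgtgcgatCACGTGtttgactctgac
Ctsf, chr19:4855074-4855103, plus strand: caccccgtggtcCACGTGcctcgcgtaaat
Ctsl, chr13:64370739-64370768, minus strand: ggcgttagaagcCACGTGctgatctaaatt
Ctsd, chr7:142387908-142387937, minus strand: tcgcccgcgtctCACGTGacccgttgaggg
Glb1, chr9:114401018-114401047, plus strand: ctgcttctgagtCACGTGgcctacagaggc

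Per length of transcript, the members spanned about 2 orders of magnitude in the ganglia of naive mice given vehicle. FPKM (a per-length measure of fragments, as deposited) was highest for Psap, prosaposin, at 483 ± 45.8 (SD, n = 5). The aspartic protease Ctsd (288 ± 39.7) and the cysteine protease Ctsb (209 ± 24.3) came next, followed by Lamp1, the main glycoprotein of the lysosomal membrane (149 ± 9.38). Lgmn, the asparagine-cutting legumain, and Ctsl stood at 107 ± 24.8 and 106 ± 18.8, and their ranges overlapped. The lowest were Mcoln1, a cation channel of the lysosomal membrane (6.23 ± 0.42), Gusb, beta-glucuronidase (5.26 ± 0.82), and Npc1, the membrane carrier of cholesterol (4.11 ± 0.50). Cd68, Ctss and Laptm5 lay in the middle or low part of the order, and their levels differed widely between these mice. Cd68 ran from 4.05 to 13.6 FPKM and Ctsh from 2.87 to 11.6, while Scarb2 ran only from 29.0 to 32.8 and Neu1 from 9.24 to 10.5.

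**Figure D1:**
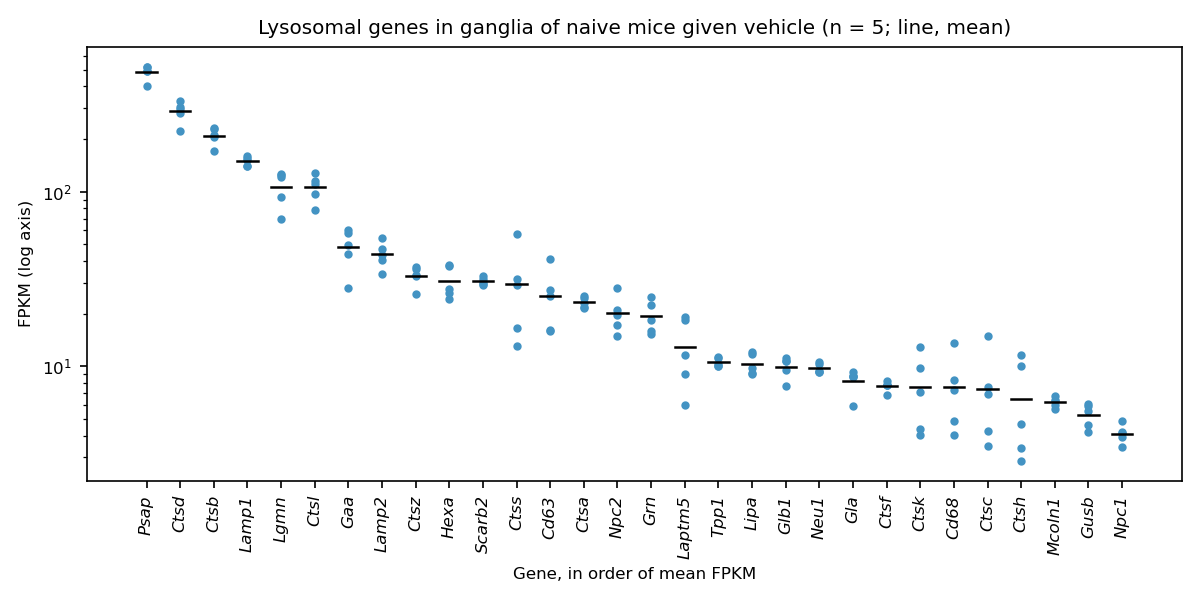
FPKM (log axis) of the 30 lysosomal genes in naive mice given vehicle, each point a mouse (n = 5) and each line the mean, in order of the mean. Psap leads at a mean of 483 and Npc1 is lowest at 4.11, and Ctss, Laptm5, Ctsk, Cd68, Ctsc and Ctsh show the widest spread relative to their means.

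In DMM mice given AP20187 members were called in both directions, as were genes in general. Of the 30 members, 4 rose (Gusb, Grn, Neu1, Tpp1) and 6 fell (Gaa, Ctsl, Ctsf, Psap, Mcoln1, Scarb2) by edgeR's quasi-likelihood test at an adjusted p under 0.05, and 20 did not pass. That is 33.3% of the members (13.3% higher and 20.0% lower), read against 23.8% of all genes tested (11.3% higher and 12.4% lower). Log2 fold changes were positive for 15 members and negative for 15, with a median of -0.01 against -0.10 over all genes. In naive mice 5 rose (Cd68, Laptm5, Gusb, Grn, Ctsz) and 1 fell (Ctsf), 20.0% against 11.2% of all genes (8.61% higher and 2.57% lower), with 19 positive, 11 negative and a median of 0.27 against -0.07. Of the CACGTG genes, 4 were among the 6 that fell in DMM mice, 0 among the 4 that rose and 6 among the 17 other members with a window. The longer TCACGTG was in 2 of the 6 that fell, 0 of the 4 that rose and 6 of the 17 others.

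**Figure D2:**
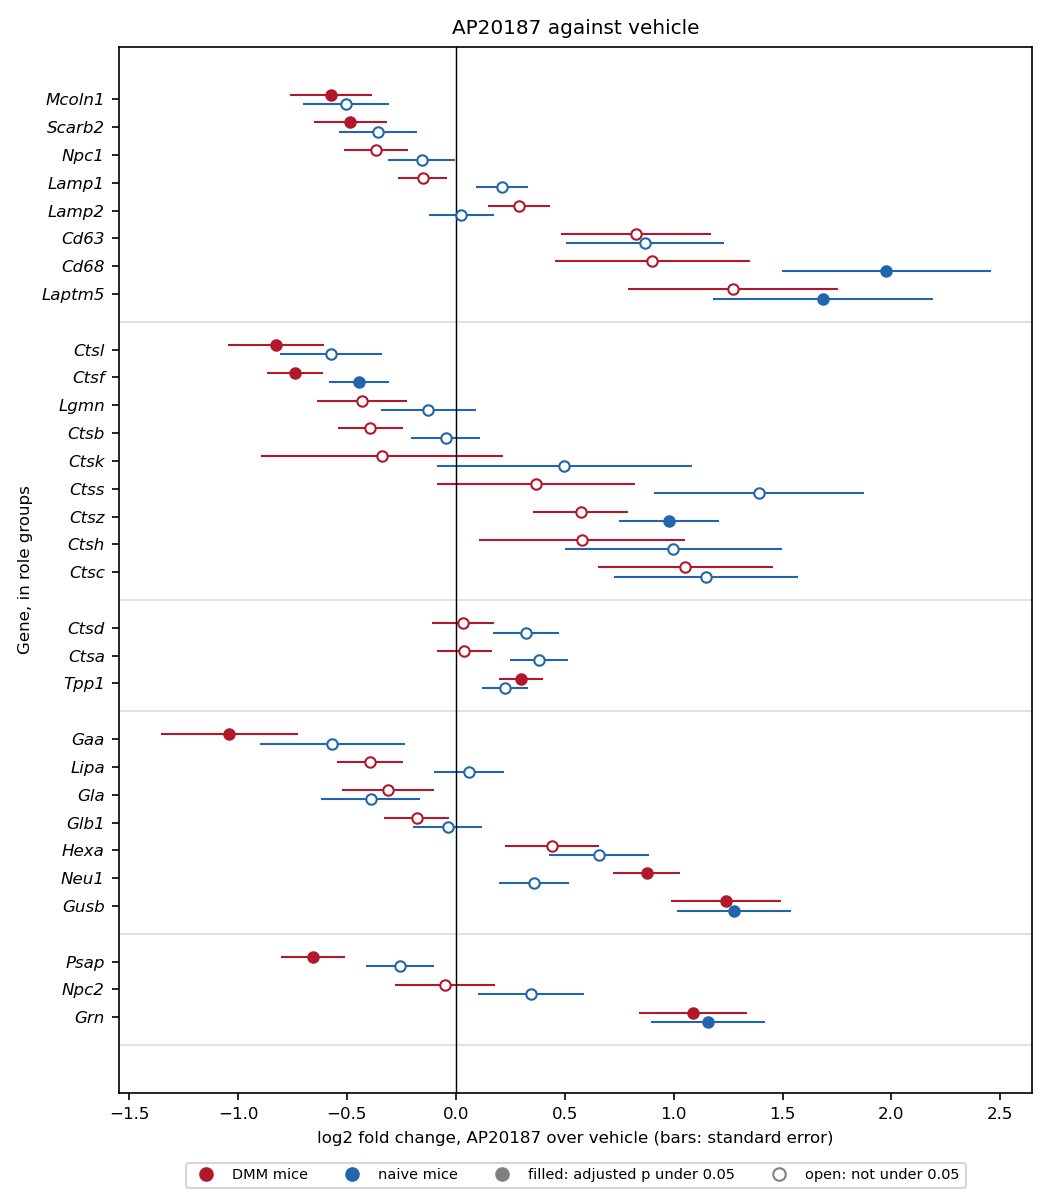
Log2 fold change of AP20187 over vehicle for each lysosomal gene in DMM mice (red) and naive mice (blue), in role groups from membrane proteins at the top to lipid carriers and progranulin at the bottom; bars are standard errors and filled points passed an adjusted p of 0.05. In DMM mice 4 filled points lie right of 0 and 6 left, and in naive mice 5 lie right and 1 left.

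Of the 7 enzymes that cut sugars or lipids, Gusb and Neu1 rose and Gaa fell in DMM mice (42.9%, where 23.8% of all genes were called), and Gusb alone passed in naive mice (14.3%, near the 11.2% of all genes). Gusb (ENSMUSG00000025534; GRCm39 chr5:130017852-130031890), which removes glucuronic acid from glycosaminoglycans, was at 90.8, 69.7, 61.7, 55.9 and 87.9 CPM in DMM mice 58 to 62 given AP20187, and at 20.1, 20.6, 23.8, 35.8 and 54.4 in DMM mice 32, 33, 34, 63 and 64 given vehicle. In naive mice it was at 69.5, 72.6, 43.9 and 51.5 with AP20187 (mice 1, 3, 4 and 5) and at 25.5, 22.1, 26.9, 28.3 and 19.8 with vehicle (mice 1 to 5), and values of other members are given in the same order of mice. Every library with AP20187 was above every library with vehicle in both comparisons, and vehicle mouse 64 came closest. The log2 fold change was 1.24 (SE 0.25, edgeR adjusted p = 0.00287) in DMM and 1.28 (SE 0.26, adjusted p = 0.00543) in naive mice.

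Neu1 (ENSMUSG00000007038; GRCm39 chr17:35150229-35154929), the sialidase of the lysosome, was at 85.3, 61.8, 66.8, 57.5 and 95.0 CPM in DMM mice given AP20187 and at 35.0, 43.3, 38.8, 41.3 and 41.3 in DMM with vehicle. Mouse 64 was level with the rest of its group here, and the groups did not overlap. Naive levels were 60.4, 51.1, 38.4 and 41.0 with AP20187 and 35.3, 36.4, 38.4, 35.6 and 40.5 with vehicle, which overlap. AP20187 over vehicle gave a log2 fold change of 0.88 (SE 0.15, edgeR adjusted p = 0.00108) in DMM and 0.36 (SE 0.16, adjusted p = 0.149) in naive mice. Gaa (ENSMUSG00000025579; GRCm39 chr11:119158713-119176280), which breaks down glycogen, was at 78.2, 68.8, 71.9, 142.6 and 93.8 CPM in DMM mice given AP20187 and at 194.5, 286.4, 198.0, 166.1 and 91.1 with vehicle. Mouse 64 lay inside the AP20187 range, and the other 4 vehicle mice were above it. In naive mice Gaa was at 126.5, 84.6, 196.3 and 227.2 with AP20187 and 213.4, 292.2, 133.1, 241.9 and 295.3 with vehicle, again overlapping. It fell by 1.04 on the log2 scale in DMM (SE 0.31, edgeR adjusted p = 0.0244), and the naive value was -0.57 (adjusted p = 0.262). The DMM call on Gaa was lost without AP20187 mouse 58, 59 or 60 or vehicle mouse 32 or 33, left out in turn.

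The other members that cut sugars or lipids did not pass in either comparison. Hexa, a subunit of beta-hexosaminidase, had log2 fold changes of 0.44 in DMM and 0.66 in naive mice (edgeR adjusted p = 0.146 and 0.0701), and its naive ranges did not overlap. Gla, alpha-galactosidase A, had values of -0.31 and -0.39, and Glb1, beta-galactosidase, -0.18 and -0.04. Glb1 shares its strand with overlapping genes, the largest of which holds 17.6% of its CPM, so its reads may be split. Lipa, the acid lipase that frees cholesterol from its esters, was at -0.39 in DMM (adjusted p = 0.0637) and 0.06 in naive mice.

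Of the 3 lipid carriers or cofactors, Grn rose in both comparisons and Psap fell in DMM mice. Grn (ENSMUSG00000034708; GRCm39 chr11:102321141-102327874) encodes progranulin, a secreted protein that is cut in the lysosome into granulins. It was at 225.8, 178.9, 159.3, 124.9 and 175.1 CPM in DMM mice given AP20187 and at 46.1, 65.5, 70.8, 85.7 and 138.0 with vehicle, where only mouse 64 reached the AP20187 range. Naive mice had 158.7, 202.0, 125.7 and 127.8 with AP20187 and 55.9, 67.6, 77.6, 88.7 and 54.5 with vehicle, with no overlap. Its log2 fold change was 1.09 (SE 0.25, edgeR adjusted p = 0.00564) in DMM and 1.16 (SE 0.26, adjusted p = 0.00896) in naive mice.

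Psap (ENSMUSG00000004207; GRCm39 chr10:60113449-60138376), the precursor of the saposins and the most abundant member per length, was at 875.7, 737.7, 744.3, 1034 and 836.9 CPM in DMM mice given AP20187. With vehicle it was at 1203, 1442, 1311, 1379 and 1321, every mouse above every AP20187 mouse. Naive levels were 1071, 914.1, 1250 and 1315 with AP20187 and 1363, 1503, 1108, 1371 and 1450 with vehicle, which overlap. Psap fell by 0.65 on the log2 scale in DMM (SE 0.15, edgeR adjusted p = 0.00511), and the naive value was -0.26 (SE 0.16, adjusted p = 0.278). Npc2, which hands cholesterol to Npc1 inside the lysosome, had values of -0.05 and 0.34, and neither passed.

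**Figure D3:**
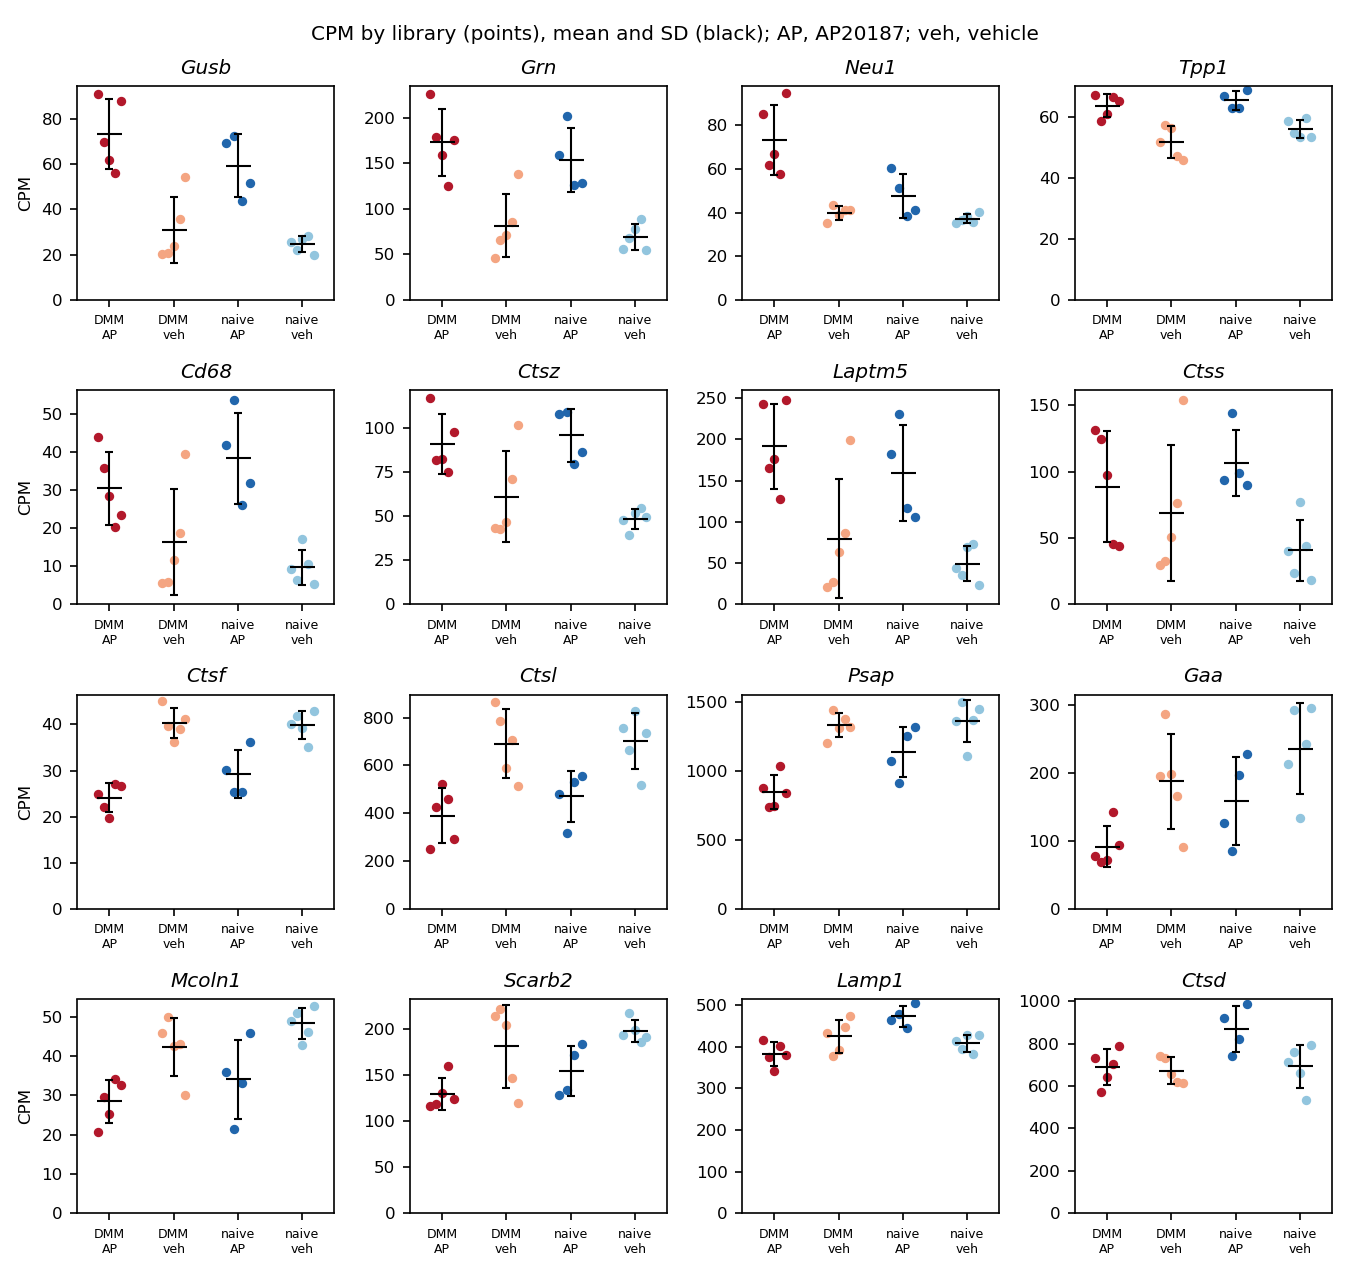
CPM (linear axes from 0) of 16 lysosomal genes in each library (points), with the group mean and SD in black; n = 5, 5, 4 and 5 from left to right in each panel. Gusb, Neu1 and Tpp1 points with AP20187 lie above all vehicle points in DMM mice, Ctsf and Psap points lie below, and for Cd68 and Laptm5 a single DMM vehicle mouse, number 64, sits among the AP20187 points.

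Of the 9 cysteine proteases, Ctsf and Ctsl fell in DMM mice (22.2%, near the 23.8% of all genes), and in naive mice Ctsz rose and Ctsf fell (22.2% against 11.2%). Ctsf (ENSMUSG00000083282; GRCm39 chr19:4905158-4910946), which trims the invariant chain in macrophages and is also made in neurons, was at 25.0, 22.0, 19.6, 27.1 and 26.7 CPM in DMM mice given AP20187 and at 45.1, 39.7, 36.1, 39.0 and 41.2 with vehicle. The groups were clear of each other, with mouse 64 near the vehicle mean. Levels in naive mice were 30.2, 25.3, 25.4 and 36.2 with AP20187 and 40.1, 41.8, 39.3, 35.0 and 42.9 with vehicle, with mouse 5 of the first group inside the range of the other. Ctsf fell by 0.74 (SE 0.13, edgeR adjusted p = 0.00112) on the log2 scale in DMM and by 0.44 (SE 0.14, adjusted p = 0.0453) in naive mice. The naive call was lost without AP20187 mouse 1, 3 or 4 or vehicle mouse 1, 2, 3 or 5, and also with no filter on low counts (adjusted p = 0.0715), with only the 2 groups in the fit (0.0897) and with the replicate block (0.0767).

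Ctsl (ENSMUSG00000021477; GRCm39 chr13:64507151-64518704), a broad endopeptidase, was at 250.9, 426.4, 522.0, 461.6 and 291.9 CPM in DMM mice given AP20187 and at 864.5, 787.5, 588.4, 705.3 and 513.9 with vehicle. The ranges met only where AP20187 mouse 60 passed vehicle mouse 64. Naive levels were 480.9, 319.3, 529.1 and 555.5 with AP20187 and 758.1, 665.5, 827.1, 520.4 and 738.1 with vehicle, which overlap. Ctsl fell by 0.82 on the log2 scale in DMM (SE 0.22, edgeR adjusted p = 0.0134), and the naive value was -0.57 (adjusted p = 0.116).

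Ctsz (ENSMUSG00000016256; GRCm39 chr2:174269286-174280832), a carboxypeptidase also called cathepsin X, was at 107.9, 109.2, 79.5 and 86.4 CPM in naive mice with AP20187 and at 48.0, 39.5, 51.7, 54.5 and 49.4 with vehicle, with no overlap. In DMM it was at 117.2, 81.8, 82.3, 75.04 and 97.8 with AP20187 and at 43.2, 42.5, 46.7, 71.1 and 101.9 with vehicle, where mouse 64 exceeded 4 of the 5 AP20187 mice. The log2 fold change was 0.98 (SE 0.23, edgeR adjusted p = 0.0117) in naive and 0.57 (SE 0.22, adjusted p = 0.0624) in DMM mice.

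Ctss, the cathepsin that finishes the trimming of the invariant chain in antigen-presenting cells, was at 131.6, 124.6, 97.6, 45.7 and 44.2 CPM in DMM mice given AP20187 and at 29.5, 32.5, 50.6, 76.6 and 154.4 with vehicle. The groups overlapped across nearly their whole ranges, with mouse 64 highest of the 10. In naive mice it was at 93.6, 144.0, 99.1 and 89.7 with AP20187 and 40.3, 23.6, 77.1, 43.8 and 18.3 with vehicle, with no overlap, yet the log2 fold change of 1.39 (SE 0.48) did not pass (edgeR adjusted p = 0.0685). The DMM value was 0.37 (SE 0.45, adjusted p = 0.604). Ctsc, which activates the serine proteases of granulocytes, had values of 1.05 in DMM and 1.15 in naive mice (adjusted p = 0.0635 and 0.0836). Ctsh, an aminopeptidase, had 0.58 and 1.00, and Ctsk, the collagen-cutting cathepsin of osteoclasts, -0.34 and 0.50. Without vehicle mouse 64 the DMM value of Ctsk was 0.72, and against vehicle mice 32 to 34 alone it passed at 1.23 (edgeR adjusted p = 0.0289). Ctsb and Lgmn were at -0.39 and -0.43 in DMM (adjusted p = 0.0616 and 0.134) and at -0.05 and -0.13 in naive mice.

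Of the other proteases, Tpp1 (ENSMUSG00000030894; GRCm39 chr7:105394018-105401442), a tripeptidyl peptidase, rose by a small and even amount in DMM mice. It was at 67.1, 58.7, 61.0, 66.4 and 65.3 CPM with AP20187 and 51.6, 57.3, 56.4, 47.2 and 45.9 with vehicle, so the ranges were apart by a narrow margin. Naive mice had 66.9, 62.9, 63.0 and 69.0 with AP20187 and 58.6, 54.6, 53.3, 59.7 and 53.5 with vehicle, also without overlap. AP20187 over vehicle gave a log2 fold change of 0.30 (SE 0.10, edgeR adjusted p = 0.0386) in DMM and 0.23 (SE 0.11, adjusted p = 0.171) in naive mice. The DMM call was lost without AP20187 mouse 58, 60, 61 or 62 or vehicle mouse 32, 63 or 64. It was also lost with library totals in place of TMM (adjusted p = 0.0546), with no filter on low counts (0.0702), with limma (0.0550), with only the 2 groups in the fit (0.0747) and against vehicle mice 32 to 34 alone (0.147). Ctsd, the main aspartic protease, was at 732.5, 573.0, 640.4, 705.3 and 790.5 CPM in DMM mice given AP20187 and 741.5, 733.9, 656.7, 618.3 and 612.8 with vehicle. Levels in naive mice were 921.0, 740.9, 822.6 and 985.2 with AP20187 and 714.2, 760.5, 663.4, 535.4 and 793.6 with vehicle. Both pairs of ranges overlapped, and the log2 fold changes were 0.03 and 0.32 (adjusted p = 0.897 and 0.169). Ctsa, the serine carboxypeptidase that protects Neu1 and Glb1 in a complex, had 0.04 and 0.38 (adjusted p = 0.860 and 0.0717).

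Of the 8 membrane proteins, Cd68 and Laptm5 rose in naive mice (25.0% against 11.2% of all genes) and Mcoln1 and Scarb2 fell in DMM mice (25.0%, near the 23.8% of all genes). Cd68 (ENSMUSG00000018774; GRCm39 chr11:69555039-69556979), a glycoprotein of macrophage lysosomes, was at 41.9, 53.7, 26.3 and 31.9 CPM in naive mice with AP20187 and at 9.35, 6.45, 17.1, 10.7 and 5.25 with vehicle, without overlap. In DMM it was at 44.2, 36.0, 28.6, 20.3 and 23.6 with AP20187 and at 5.69, 5.92, 11.8, 18.9 and 39.5 with vehicle, where mouse 64 was above 4 of the 5 AP20187 mice. Its log2 fold change was 1.98 (SE 0.48, edgeR adjusted p = 0.0139) in naive and 0.90 (SE 0.45, adjusted p = 0.151) in DMM mice. The naive call was lost without AP20187 mouse 3 (adjusted p = 0.0518), and without vehicle mouse 64 Cd68 passed in DMM at 1.53 (adjusted p = 0.00722).

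Laptm5 (ENSMUSG00000028581; GRCm39 chr4:130640436-130663452), a lysosomal protein of blood cells, was at 182.6, 230.7, 116.9 and 106.2 CPM in naive mice with AP20187 and at 44.5, 35.9, 69.7, 73.7 and 23.4 with vehicle. In DMM it was at 242.7, 165.0, 175.9, 127.6 and 247.4 with AP20187 and at 20.7, 26.7, 63.2, 87.1 and 199.3 with vehicle. The naive ranges were apart and the DMM ranges met only through mouse 64. The log2 fold change was 1.69 (SE 0.51, edgeR adjusted p = 0.0387) in naive and 1.27 (SE 0.48, adjusted p = 0.0617) in DMM mice. The naive call was lost without AP20187 mouse 1 or 3 or vehicle mouse 1, 2 or 5, with library totals in place of TMM (adjusted p = 0.0543) and with no filter on low counts (0.0605).

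Mcoln1 (ENSMUSG00000004567; GRCm39 chr8:3550457-3565232), the channel that releases calcium from lysosomes, was at 20.7, 29.7, 25.1, 34.0 and 32.6 CPM in DMM mice given AP20187 and 45.7, 49.9, 42.6, 42.9 and 30.2 with vehicle. Naive levels were 35.8, 21.4, 33.0 and 45.9 with AP20187 and 48.7, 51.0, 42.8, 46.2 and 52.7 with vehicle. The DMM ranges overlapped only through mouse 64 and the naive ranges through AP20187 mouse 5. Mcoln1 fell by 0.57 on the log2 scale in DMM (SE 0.19, edgeR adjusted p = 0.0335), and the naive value was -0.51 (adjusted p = 0.105).

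Scarb2 (ENSMUSG00000029426; GRCm39 chr5:92589173-92654692), the receptor that carries beta-glucocerebrosidase to the lysosome, was at 115.9, 118.0, 130.3, 159.5 and 123.7 CPM in DMM mice given AP20187 and at 213.5, 221.2, 204.0, 146.8 and 119.9 with vehicle. Vehicle mice 63 and 64 lay inside the AP20187 range and mice 32 to 34 above it. In naive mice it was at 128.3, 133.4, 172.0 and 183.2 with AP20187 and 193.8, 217.5, 198.4, 186.2 and 191.2 with vehicle, without overlap. Scarb2 fell by 0.48 on the log2 scale in DMM (SE 0.17, edgeR adjusted p = 0.0450), and the naive value was -0.36 (adjusted p = 0.198). Calls on Mcoln1 and Scarb2 were both lost without AP20187 mouse 58, 59 or 60 or vehicle mouse 32, 33 or 34, Mcoln1 also without vehicle mouse 63 and Scarb2 without AP20187 mouse 62. With no filter on low counts both were lost (adjusted p = 0.0522 for Mcoln1 and 0.0688 for Scarb2), and Scarb2 also with RLE size factors in place of TMM (0.0544) and with only the 2 groups in the fit (0.119).

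Lamp1, used widely as a marker of lysosomes, was at 414.5, 374.8, 340.1, 402.4 and 379.7 CPM in DMM mice given AP20187 and 432.5, 377.9, 392.2, 447.3 and 473.0 with vehicle. Naive mice had 463.2, 478.5, 445.2 and 504.5 with AP20187 and 412.4, 393.1, 427.6, 382.0 and 427.1 with vehicle. The DMM ranges overlapped and the naive ranges did not, but neither log2 fold change passed, at -0.15 (SE 0.11, edgeR adjusted p = 0.358) and 0.21 (SE 0.12, adjusted p = 0.246). Lamp2, a receptor of chaperone-mediated autophagy, was at 0.29 and 0.02, Cd63, a tetraspanin of late endosomes, at 0.83 and 0.87 (adjusted p = 0.0876 and 0.124), and Npc1 at -0.37 and -0.16.

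Counted over the whole set, 3 members lay wholly above and 2 wholly below vehicle in DMM mice, where 8.71% and 4.18% of all genes (12.9% together) do so. In naive mice 10 lay wholly above and 1 wholly below, where 9.39% and 6.15% (15.5% together) of all genes do. The calls of the DMM and naive comparisons, which share no libraries, had Ctsf, Grn and Gusb in common, 3 of the 10 and 3 of the 6. Whether the drug's effect differed with surgery was tested as an interaction, the effect in DMM minus that in naive mice. By edgeR 0 of 30 members passed, against 0.114% of all genes (0.0483% with a larger and 0.0659% with a smaller value in DMM), and DESeq2 and limma called 0. An unadjusted p under 0.05 was reached by 2 members (Neu1 and Lamp1) and by 1748 of all 22778 genes tested. Estimates ran from -1.07 for Cd68 (SE 0.65, adjusted p = 0.776) to 0.52 for Neu1 (SE 0.22, adjusted p = 0.588), with 4 positive and 26 negative and a median of -0.29 against -0.08 over all genes. The calls found in DMM alone or in naive mice alone are therefore not shown to differ.

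Surgery was also compared within each treatment. Under vehicle, edgeR called 0 of 30 members and 0.0% of all genes, and DESeq2 and limma called 0 members. At an unadjusted p under 0.05 were 0 members and 377 of all 22778 genes tested. The ranges of the groups overlapped for all 30, and 0.237% of all genes had ranges apart. The largest estimates were for Ctsk (1.07, SE 0.56), Ctss (0.76, SE 0.46) and Cd68 (0.74, SE 0.45), all at an adjusted p of 1.0. Under AP20187, edgeR called 0 of 30 against 0.702% of all genes. An unadjusted p under 0.05 was reached by 7 members and by 3795 of all 22778 genes tested. Neu1 came nearest at 0.62 (SE 0.16, adjusted p = 0.0786), followed by Lipa at -0.51 (SE 0.16, adjusted p = 0.126). The ranges were apart for Lamp2, higher in DMM, and for Lamp1 and Lipa, lower in DMM, where 5.9% of all genes had ranges apart (3.46% higher and 2.44% lower). DESeq2 called Neu1 as higher and Lamp1 as lower in DMM, and limma called Neu1, where they called 4.87% and 5.36% of all genes, so these counts were near the background.

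Levels differed among the DMM mice given vehicle. Mice 32 to 34 and mice 63 and 64 form separate number series in the labels, which do not say what the numbers stand for, and all DMM mice given AP20187 are numbered 58 to 62. Against mice 32 to 34 alone, 22 of 30 members passed (12 higher, 10 lower), where 36.3% of all genes did. Against mice 63 and 64 alone, 3 of 30 passed (Neu1 and Tpp1 higher, Ctsf lower), where 4.73% of all genes did. Fewer calls were thus made among the members and among all genes alike. Cd68 had a log2 fold change of 1.97 in the former case and 0.08 in the latter, Ctsz 1.04 and 0.08, and Laptm5 2.38 and 0.42. Against mice 63 and 64, Neu1 had 0.85 (edgeR adjusted p = 0.0380), while Scarb2 was at -0.014 (adjusted p = 0.985), Gaa at -0.46 (0.539) and Mcoln1 at -0.33 (0.465). Within vehicle, mice 63 and 64 alone against naive mice gave calls on Cd68 (1.63), Ctsk (2.13) and Ctsz (0.86), all higher. Their edgeR adjusted p lay between 0.0485 and 0.0496, where 2.21% of all genes were called. With mice 32 to 34 also in the group, 0 of 30 members and 0.0% of all genes were called. Ctsk was at 76.2 CPM in mouse 64 and 22.4 in mouse 63, against 6.29 to 19.4 in naive mice given vehicle. The macrophage markers summed to 435, 456 and 951 CPM in mice 32 to 34 and to 1558 and 3443 in mice 63 and 64, the neutrophil markers to 415, 700, 2161, 2833 and 8196, and the neuron markers to 10319, 9976, 8665, 9094 and 4335. Monocyte markers summed to 197, 251, 795, 844 and 1732 in the same order, fibroblast markers to 1905, 1082, 1418, 4018 and 6302, and erythroid markers to 1565, 2543, 6674, 11368 and 26309. The part of these markers in the split was not tested.

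**Figure D4:**
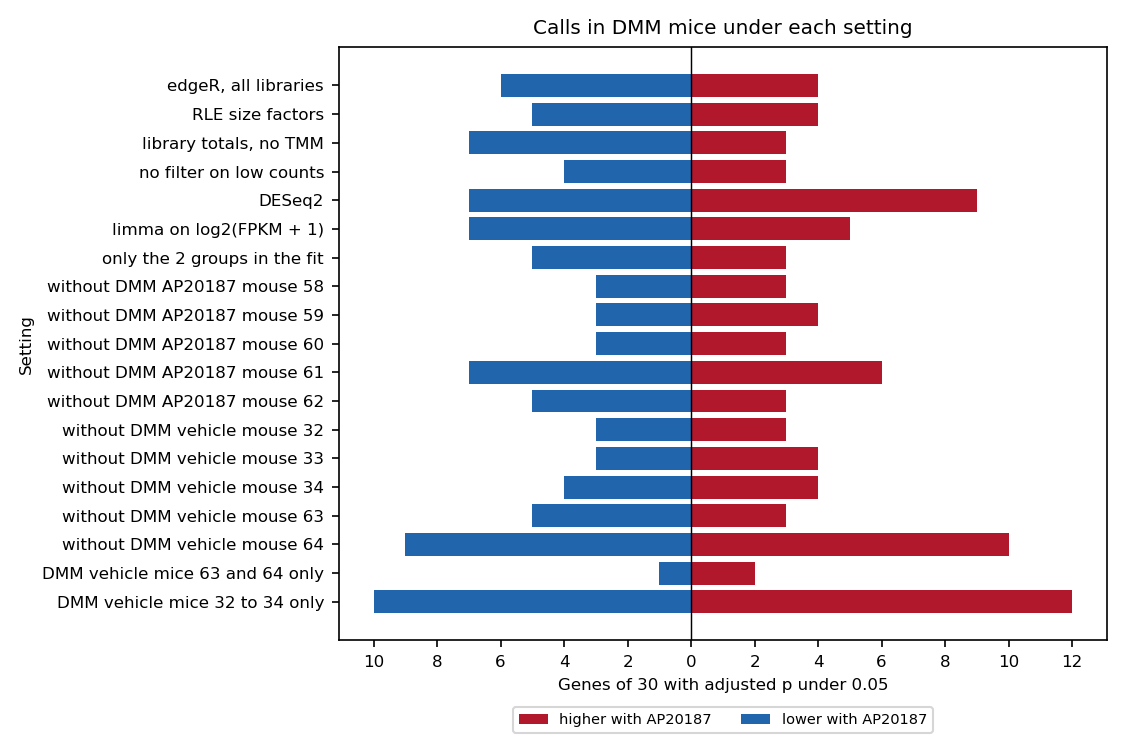
Number of the 30 lysosomal genes called in DMM mice, higher (red, right) or lower (blue, left) with AP20187, under each setting of the test. The count is 10 with all libraries, 19 without vehicle mouse 64, 22 against vehicle mice 32 to 34 and 3 against vehicle mice 63 and 64, where 23.8%, 34.0%, 36.3% and 4.73% of all genes were called.

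Leaving out single libraries moved the DMM count in both directions, and most without vehicle mouse 64. This mouse was the highest of its group in 14 members and the lowest in 11. Without it 19 members passed (10 higher, 9 lower), where 34.0% of all genes did: Cd63, Cd68, Ctsc, Ctsh, Ctsz, Hexa and Laptm5 joined the higher, Ctsb, Lgmn and Lipa the lower, and Tpp1 dropped out. Without AP20187 mouse 58 or 60 or vehicle mouse 32, 6 passed, which were Grn, Gusb, Neu1, Ctsf, Ctsl and Psap each time, where 14.2%, 17.2% and 15.1% of all genes did. Those 6 passed whichever library was left out. In naive mice Ctsz, Grn and Gusb passed whichever library was left out, and without AP20187 mouse 3 they were the only 3, where 4.24% of all genes passed.

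A block of members peaked together, mouse by mouse, in every group. Cd63, Cd68, Ctsa, Ctsc, Ctsh, Ctsk and Npc2 each had their highest level in the same mouse as Ctss in all 4 groups: AP20187 mouse 58 and vehicle mouse 64 in DMM, AP20187 mouse 3 and vehicle mouse 3 in naive mice. A further 5 (Ctsz, Grn, Gusb, Hexa and Lamp1) did so in 3 groups, Laptm5 in 2, and Ctsl, Gla, Lamp2, Lipa and Tpp1 in 1. Another 11, among them Ctsb, Ctsd, Ctsf, Gaa, Mcoln1, Psap and Scarb2, did so in none. This was noticed in the levels and carries no test. No count over all genes stands beside it, so it is not shown to be particular to these members. The 4 mice also had the highest macrophage marker sum of their groups, at 4142, 3443, 2981 and 1317 CPM, and the highest fibroblast marker sum, at 6061, 6302, 5451 and 3923. Erythroid and osteoclast marker sums were highest there in 3 of the 4 groups, and monocyte and skeletal muscle marker sums in 1. Those of neutrophils, osteoblasts, satellite glia and Schwann cells were highest there in 2 groups each, and that of the early B lineage was lowest there in 3. Of the osteoclast markers, Calcr and Ocstamp were at 0 in all naive mice given AP20187, and the osteoblast markers Bglap and Bglap2 in all DMM mice given AP20187. The neuron marker sum was lowest of the group in 3 of the 4 mice, at 1436, 4335 and 1691, and second lowest in naive vehicle mouse 3, at 6833. The part of these lists in the shared peaks was not tested.

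**Figure D5:**
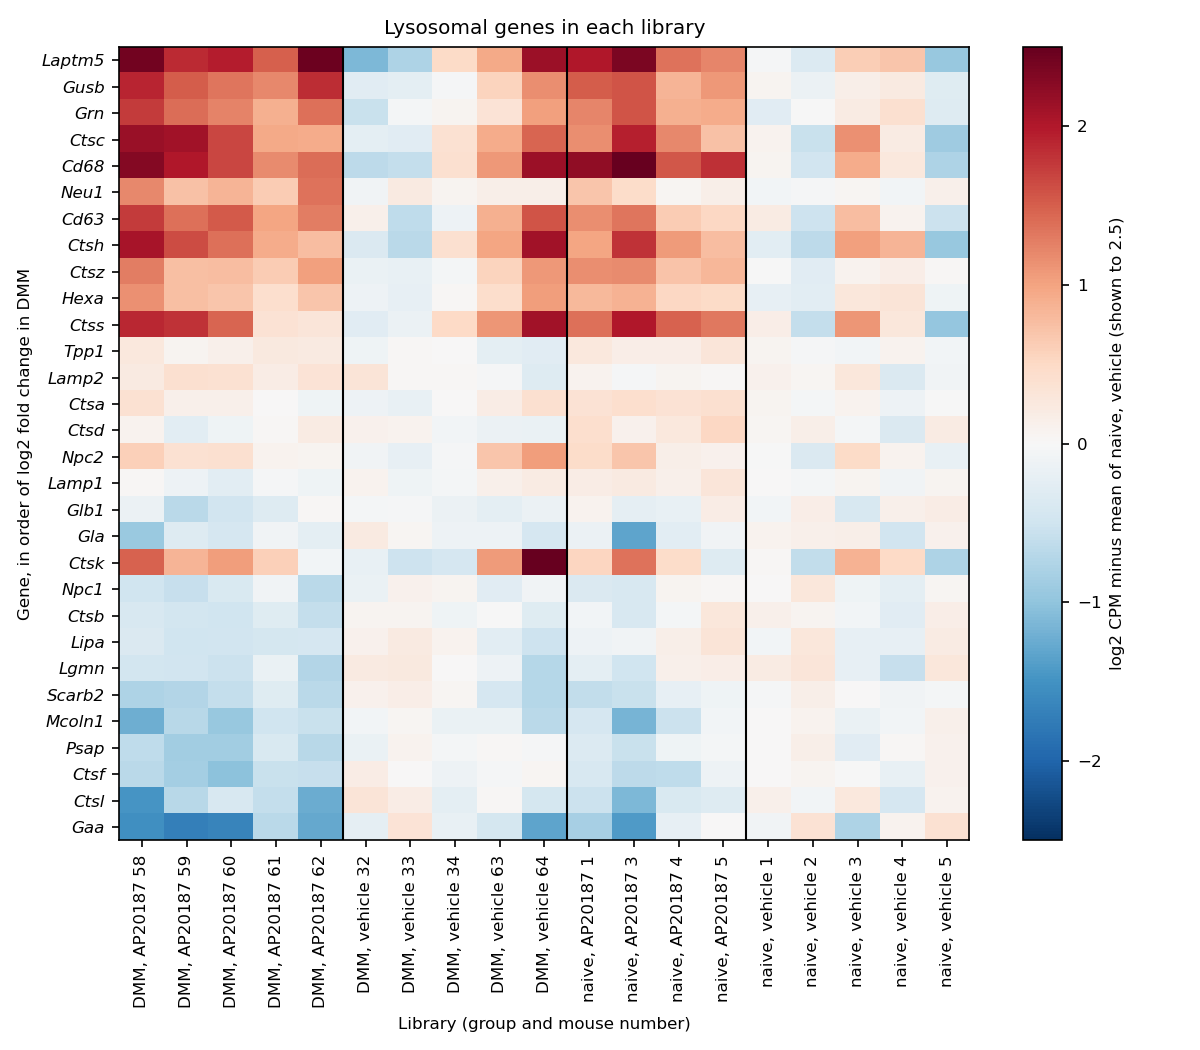
Log2 CPM of each lysosomal gene in each library minus its mean in naive mice given vehicle (colour, shown to 2.5 either way), with genes in order of their log2 fold change in DMM mice and black lines between groups. Ctss, Cd68, Cd63, Ctsc, Ctsh and Ctsk peak together in DMM mice 58 and 64 and in the naive mice numbered 3, while Gaa, Ctsl, Ctsf and Psap lie below 0 in all DMM mice given AP20187.

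Other genes of the lysosome were counted from lists fixed by name. Of 20 subunits of the proton pump that acidifies the lysosome, 1 rose and 3 fell in DMM mice, and 1 rose and 1 fell in naive mice, in both cases a smaller share than the 23.8% and 11.2% of all genes. Tcirg1, the pump's a3 subunit, known from osteoclasts and leukocytes, rose in both (log2 fold changes 1.47 and 1.497, edgeR adjusted p = 0.0181 and 0.0327), while Atp6v0e2 and Atp6v1g2, forms known from brain, fell by 1.19 and 1.07 in DMM. Of 33 further hydrolases, 2 rose and 3 fell in DMM (15.2%) and 1 rose in naive mice (3.03%), smaller shares than over all genes, a difference that was not tested. Galns, a sulfatase of keratan sulfate, rose by 2.11 and 2.37 (adjusted p = 0.00212 and 0.00253), and Ids, a sulfatase of heparan and dermatan sulfate, fell by 1.23 in DMM. Of 20 further membrane proteins tested, 4 rose and 2 fell in DMM, a larger share than over all genes, and 2 rose in naive mice, a smaller one. The calcium channel Tpcn2 rose in both (1.18 and 0.73).

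Gpnmb, a glycoprotein of lipid-laden macrophages, stood out among them by the test of the difference. It was at 82.7 ± 11.4 CPM (SD, n = 4) in naive with AP20187 and 8.39 ± 1.84 (n = 5) in naive with vehicle, a log2 fold change of 3.30 (edgeR adjusted p = 3.39e-05). In DMM it was at 20.8 ± 4.74 (n = 5) with AP20187 and 12.2 ± 8.13 (n = 5) with vehicle, a log2 fold change of 0.77 (adjusted p = 0.0837), and its interaction passed at -2.54 (SE 0.46, adjusted p = 0.0351), where no member of the set did. Sorting receptors gave 2 of 10 higher and 1 lower in DMM, again above the share of all genes, and 1 higher in naive mice, below it. Sort1, sortilin, which carries prosaposin and progranulin to the lysosome, rose by 1.37 and 0.73 (adjusted p = 0.000446 and 0.0385).

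Of 6 transcription factors known to act on lysosomal genes, 3 rose in DMM and 1 in naive mice (16.7%), where 23.8% and 11.2% of all genes were called. Tfec, a relative of TFEB made in macrophages, rose in both (2.97 and 3.03, edgeR adjusted p = 0.00145 and 0.00296), and Zkscan3, a repressor of lysosomal genes, rose by 0.76 in DMM. Of 8 cystatins and stefins tested, the inhibitors of cysteine cathepsins, 5 (62.5%) rose in both comparisons and none fell, against the same shares of all genes. Cst7, cystatin F, which acts inside lysosomes of blood cells, was at 14.8 ± 5.35 CPM (n = 5) with AP20187 and 1.63 ± 1.86 (n = 5) with vehicle in DMM, and at 11.7 ± 8.46 (n = 4) and 0.77 ± 0.35 (n = 5) in naive mice. Its log2 fold changes were 3.17 and 3.91 (adjusted p = 0.00373 and 0.00273). The others that rose were stefins of the Stfa family, near-identical genes among which the counting may split reads. Of the 12 neutrophil markers, 8 rose in DMM and 9 in naive mice, and their part in these changes was not tested.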

How the data were processed

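Counts per gene (whole numbers) and FPKM were deposited by the authors for 19 libraries of poly(A) RNA, 1 per mouse, made with a stranded kit per the labels. The submitters' processing notes name cutadapt, HISAT2, StringTie and the build GRCm39; the counting program, its strand setting and the annotation release are not given in the sources used here. Where genes overlap on opposite strands (Ctsz, Ctsa, Ctsb, Npc1, Hexa, Lamp1, Grn), reads could be shared. Counts were fitted with edgeR 4.0.16 in R 4.3.3 (TMM, filterByExpr with a minimum count of 10, 1 model of the 4 groups on all 19 libraries, 15 residual degrees of freedom, two-sided quasi-likelihood F tests). P-values were adjusted by Benjamini-Hochberg over 22778 genes of a contrast, with a threshold of 0.05. FPKM as deposited by the authors gave the order of levels and an alternative, limma 3.58.1 on log2(FPKM + 1); DESeq2 1.42.0 was another. Further alternatives changed the scaling, the filter, the groups in the fit and the libraries included. Per-library values are given for members that passed in a contrast and for Lamp1, Ctsd, Ctss and Cd68, and at most 3 genes per further list and contrast are named. The members, lists and tests were chosen with earlier results of these data known. Labels name separate mice as replicates, with numbers but no batch or date. A mouse's ganglia were pooled.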

Additional observations from a re-analysis of the deposited data

Results flagged for a closer look

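Of 120 combinations of a member and a group, 2 held a library far from the rest of its group; chance alone flags about 1 in 20 groups. Ctsk was at 76.2 CPM in DMM vehicle mouse 64, against 7.48 to 22.4 in the other 4 mice. The same library had the highest sum of the 6 osteoclast markers, 64.8 CPM against 2.96 to 11.2 in the other mice of its group. Its sums of osteoblast markers (62.8 CPM against 14.7 to 18.5), erythroid markers (26309 against 1565 to 11368) and fibroblast markers (6302 against 1082 to 4018) were also the highest. The part of these lists in the Ctsk level was not tested. Gla was at 19.7 CPM in naive vehicle mouse 4, the lowest of its group, against 29.1 to 30.03 in the other 4 mice.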

How the results depend on the processing

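Against the 10 calls in DMM mice, DESeq2 gave 16 (9 higher, 7 lower), vehicle mice 63 and 64 alone 3 and mice 32 to 34 alone 22, and leaving out each library gave 6 to 19. Over all genes the share called was 23.8% in the fit reported and 30.9%, 4.73% and 36.3% in those first 3 alternatives. Against the 6 in naive mice, DESeq2 gave 10 (9 higher, 1 lower; 19.1% of all genes against 11.2%), limma on log2(FPKM + 1) 9 (5 higher, and Ctsf, Ctsl, Mcoln1 and Scarb2 lower; 18.2%) and leaving out each library gave 3 to 7. A fit with the replicate number as a block gave 9, all higher (11.1% of all genes). The labels do not say that shared numbers pair mice, so the numbers were not taken as pairs. Deviations of same-numbered naive mice correlated at 0.02, 0.30, -0.08 and 0.18, and those of differently numbered mice at -0.26 to 0.20. For DMM against naive, vehicle mice 63 and 64 alone gave 3 calls (2.21% of all genes), and under AP20187 the totals without TMM gave 1 (1.03%), DESeq2 2 (4.87%), limma 1 (5.36%) and leaving out each library 0 to 1. The median log2 fold change of the members ran over these settings from -0.09 to 0.19 in DMM mice (-0.01 in the fit reported), so its sign turned. In naive mice it ran from 0.09 to 0.30 (0.27 in the fit reported), and for the interaction from -0.35 to -0.10 (-0.29). Ctsf and Neu1 were called in DMM under all 19 settings tried, and Ctsl, Grn, Gusb and Psap under 18, all but mice 63 and 64 alone. In naive mice Ctsz, Grn and Gusb were called under all 17. Without TMM the share of calls over all genes that were higher in naive mice was 62.9%, against 77.0% with it, and limma turned the balance to 39.2%.

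Signs turned only for members that had not passed in the fit reported. In DMM mice with vehicle mice 63 and 64 alone, Ctsa was at -0.16, Ctsh at -0.21, Ctss at -0.36 and Hexa at -0.0023. With mice 32 to 34 alone, Ctsd was at -0.047, Npc2 at 0.43 and Ctsk at 1.23, which passed (edgeR adjusted p = 0.0289). With limma Ctsd was at -0.0057 and Ctsk at 0.15, and with only the 2 groups in the fit Npc2 was at 0.0066. In naive mice Glb1 was at 0.032 under the block, Lamp2 at -0.054 and Lipa at -0.012 without TMM, and at -0.14 and -0.11 with limma. With each library left out, values in DMM ran from -0.033 to 0.13 for Ctsa, -0.021 to 0.093 for Ctsd, -0.57 to 0.72 for Ctsk and -0.16 to 0.18 for Npc2, and in naive mice from -0.19 to 0.041 for Ctsb, -0.13 to 0.021 for Glb1, -0.057 to 0.10 for Lamp2 and -0.046 to 0.14 for Lipa. The cause of these moves was not tested. The lowest count of any member in any library was 369, and the parts of counting error and of the spread between mice were not separated.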
